A study of Mus musculus with 2 samples.

Results

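Long intergenic noncoding RNA (lincRNA) genes with reads in mouse hippocampus were described here. The 88 genes were those that the deposited annotation types as lincRNA and that had at least 5 reads, summed over all transcript models, in each of the 2 libraries. Meg3, Rian, Mirg, Malat1, Neat1, Miat, Gas5 and genes named Snhg were set aside by name, which left out 6 genes that also passed the read minimum. The 88 genes were a small part of 5854 annotated lincRNA genes, of which 410 had at least 1 read in each library. Because read counts chose the genes, their levels are given as a description and carry no test. At the edge of the rule, 15 lincRNA genes had 5 as their lower count, such as 1300002E11Rik (12 and 5 reads), 2900076A07Rik (12 and 5) and 5033430I15Rik (6 and 5). Another 23 had 4, such as 1500035N22Rik (8 and 4), 1700047M11Rik (14 and 4) and 2210406O10Rik (5 and 4).

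The mice were females of the hybrid strain B6CASTF1/J, 14 days old, and total RNA of their hippocampus was sequenced as long cDNA reads, in 1 group with a pair of libraries. Each library was a pool of 3 animals and started from 2 µg of RNA with added spike-in RNAs. Characteristics name different animals for each pool, while a description line of replicate 2 repeats the animals of replicate 1, so the pools may not be separate animals. The tests below set 1 library against the other with reads as the unit, so their p-values cover counting error only and hold no spread between replicates. Replicate 1 held 1168366 reads and replicate 2 held 888704, so 1 read was worth 0.856 and 1.13 CPM (counts per 1000000 reads). Markers of hippocampal granule, CA1 and CA2/CA3 cells, glia and endothelium were read in both libraries. The 3 thalamus markers summed to 59 reads in replicate 1 and 58 in replicate 2, with Gbx2 at 0 in both. The 4 choroid plexus markers summed to 5416 reads in replicate 1 and 5 in replicate 2, a difference whose part in the results below was not tested.

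LincRNAs are transcribed by RNA polymerase II, and most are capped, spliced and polyadenylated like messenger RNAs but hold no long open reading frame. Many start close to the promoter of a protein-coding gene on the opposite strand, and several carry a microRNA hairpin that is cut from the transcript. In brain they include sponges for RNA-binding proteins, partners of microRNAs and the RNA that silences an X chromosome.

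The sequences below are microRNAs, a target site and motifs that well-read genes of the set are known for. All 3 miR-9 precursors lay in genes of the set (Mir9-1 in Gm3764, Mir9-2 in C130071C03Rik and Mir9-3 in Mir9-3hg). miR-9 is a brain microRNA of neural progenitors, and the 3 precursors give the same mature strands in RefSeq (GRCm38.p6). Capitals mark the seed, bases 2 to 8.
mmu-miR-9-5p: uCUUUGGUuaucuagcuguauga
mmu-miR-9-3p: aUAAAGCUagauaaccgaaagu
In 1700020I14Rik, known as Cyrano or Oip5os1, the conserved site for miR-7 was searched in the longest annotated transcript of 8300 nt. Capitals in the microRNA mark its seed, and in the site the match to the seed and a second complementary run of 13 nt.
mmu-miR-7a-5p: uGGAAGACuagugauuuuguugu
1700020I14Rik, nt 2933 to 2959: gaACAACAAAATCACcaatGTCTTCCa
The seed match alone occurred in 669 of 5854 lincRNA genes (11.4%), and the pair with a second run of that length in 1, 1700020I14Rik itself. 2900097C17Rik is the mouse Norad gene, whose RNA binds Pumilio proteins. Its transcript of 4915 nt held 11 matches to TGTANATA on the sense strand, a Pumilio recognition motif. Capitals mark the motif in 4 of these.
2900097C17Rik, nt 643 to 666: aagtcctgTGTATATAatatgaaa
2900097C17Rik, nt 1139 to 1162: aaacatgcTGTAAATAcctttttg
2900097C17Rik, nt 1328 to 1351: cttttcttTGTACATAgtgtatgt
2900097C17Rik, nt 3518 to 3541: tgagaaagTGTACATAacggattg
A match occurred in 813 of 5854 lincRNA genes (13.9%) and in 23 of the 88 (26.1%). The longest transcript of each gene was searched without a length correction, so these shares do not compare genes at like length. Among the 477 lincRNA genes with a transcript of 3000 nt or more, 2900097C17Rik was the 1 gene with that many matches, and the next highest lincRNA gene held 9. A match describes letters and not binding.

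The set summed to 2264 reads in replicate 1 and 1696 in replicate 2, or 1923 CPM ± 20.8 (SD, n = 2). The closeness of the libraries depends on the scaling, since TMM-scaled totals gave 2023 and 1828 CPM (SD 138). The median gene lay at 10.9 CPM. Each read was counted once whatever the transcript length, and levels were compared between genes without a length correction. Whether length alters how often a gene is read was not tested. 2900097C17Rik had 394 reads in replicate 1 and 377 in replicate 2, 381 CPM ± 61.5 (SD, n = 2), the highest level in the set. Pantr1, which starts beside the neural transcription factor gene Pou3f3, had 130 and 76 reads. 1700020I14Rik had 74 and 83 reads, and Gm3764 had 72 and 70. These 4 genes had the highest mean CPM, although in replicate 1 Gm26848, with 82 reads, exceeded the last 2 of them.

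**Figure D1:**
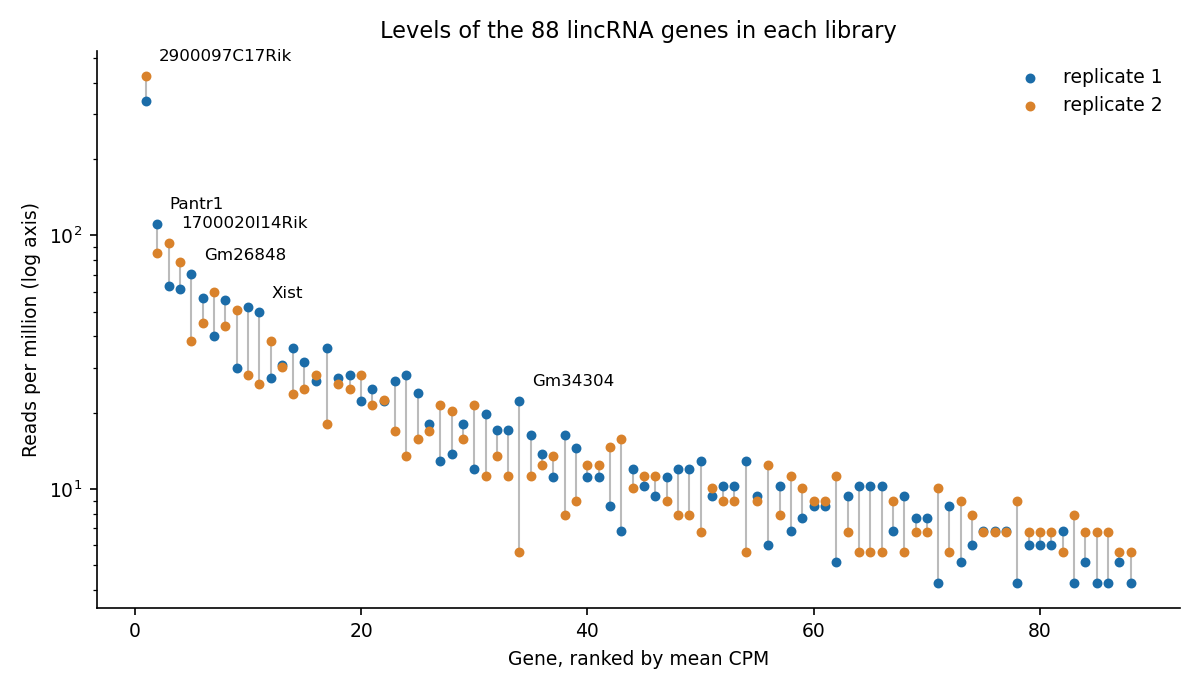
CPM on a log axis for the 88 genes ranked by mean CPM, with 1 point for each library and a line joining them. 2900097C17Rik stood far above the rest at 337 and 424 CPM, and Gm26848 and Gm34304 show wide gaps between libraries.

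Other genes among the 15 highest were less familiar. Gm26848 had 82 and 34 reads, Gm10076 66 and 40, Mir9-3hg 47 and 53, and Gm10419 65 and 39. Gm26699 had 61 and 25 reads, Xist 58 and 23, AY036118 35 and 45, C230057M02Rik 32 and 34, and Gm10684 36 and 27. 1810058I24Rik had 42 and 21 reads, and 2310075C17Rik 37 and 22. Reads of some of these cannot be assigned with certainty. The Gm10076 transcript was 99.5% identical over 383 nt to Rpl41, a ribosomal protein gene. In all, 8 genes had a transcript with at least 90% identity over 50% of its length to a gene elsewhere. AY036118, Gm42418 and Gm26917 lie together on chromosome 17, where AY036118 lies inside Gm42418 on the opposite strand. They were read at 35 and 45, 31 and 25, and 14 and 19 reads.

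In role lists matched by gene name, 2 of 3 X-chromosome lincRNA genes and 2 of 5 microRNA hosts were in the set. So were 2 of 5 genes of neural development, 2 of 5 widely expressed genes and 0 of 1 imprinted lincRNA gene. Norad was on the list of widely expressed genes but is annotated as 2900097C17Rik, so it was not counted. The list of microRNA hosts was not complete, since 6 genes of the set held a hairpin. Xist coats and silences an X chromosome in female cells, and Jpx, at 8 and 6 reads, is an activator of Xist. Pvt1, beside Myc, had 21 and 15 reads. H19 had 0 reads in both libraries.

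Xist reads did not resemble the annotated transcript of 17946 nt. In replicate 1, 57 of 58 reads and in replicate 2, 21 of 23 fell in a 1-exon model of 466 nt that begins at the annotated start (mm10, chromosome X, 103482789 to 103483254, minus strand). No read was an annotated transcript. Xist also had 1 read of a 7-exon model in replicate 2. The 20 nt after the end of the short model held 4 A.

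Reads in spliced models made up 38.1% ± 1.84 (SD, n = 2), against 88.9% ± 1.22 in 10426 protein-coding genes with the same read minimum. Annotated transcripts took 51.0% ± 4.11 of reads against 72.3% ± 0.281. 2900097C17Rik, a 1-exon gene, held 768 of the 2005 annotated reads, and without it the annotated share was 39.1% ± 2.41 and the spliced share 47.6% ± 4.44. With both libraries pooled, the median gene of the set had 25.2% of reads annotated and 58% spliced, against 67.6% and 93.3% in protein-coding genes. Genomic models, the deposited class for models that overlap a gene without fitting its splice structure, took 29.8% ± 5.20 against 6.88% ± 0.753. Between 10 and 100 reads a gene, annotated shares were 35.6% in 81 genes of the set and 56.7% in 6478 protein-coding genes, and spliced shares 43.3% and 82.0%.

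**Figure D2:**
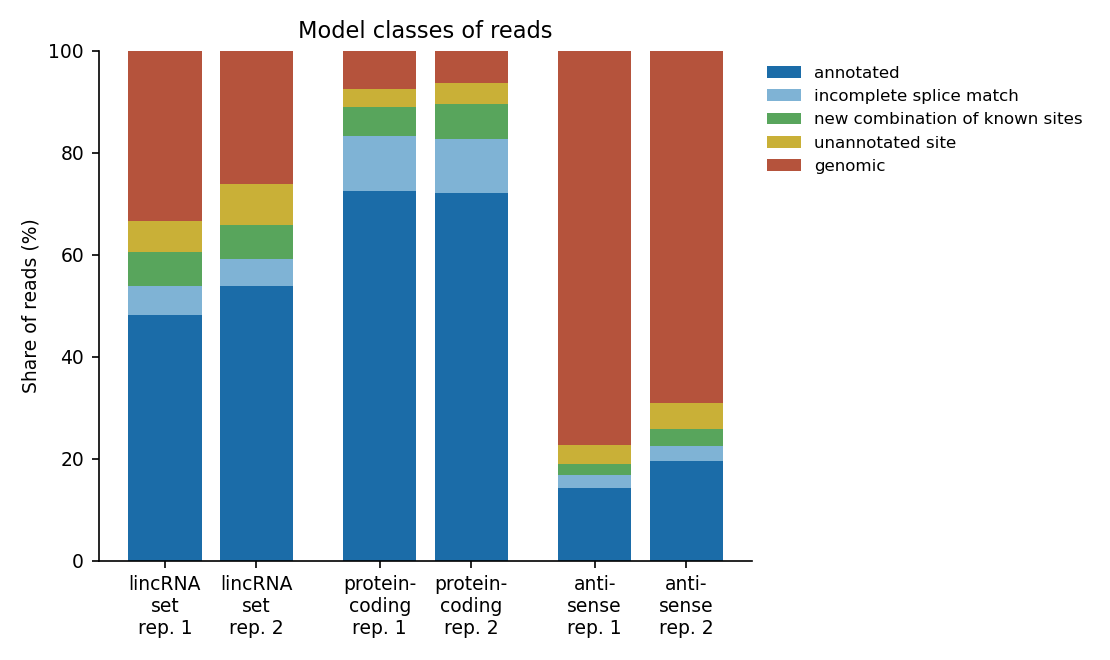
Stacked bars give the share of reads in each model class, by library, for the lincRNA set, protein-coding genes and antisense-type genes. Annotated reads were 48.1% and 54.0% in the lincRNA set and above 72% in protein-coding genes, and the antisense-type genes held mostly genomic models.

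The annotation gave the 88 genes a median of 3 exons, counted in the transcript with most exons, against 9 in protein-coding genes. In 9 genes it gave 1 exon, in 28 it gave 2, in 25 it gave 3 or 4 and in 26 it gave 5 or more. Spliced models held over 50% of reads in 46 genes (52.3%), against 89.9% of protein-coding genes. Among 79 genes with 2 or more annotated exons, 15 had no spliced read. Genes without an annotated read numbered 32 (36.4%), against 4.67% of protein-coding genes.

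Here a share of read bases is the share of a model's bases averaged over reads, so a model counts by its reads and not its length. By this measure, at least 90% of read bases fell in the gene's own annotated exons in 41 genes, which held 60.9% of the reads of the set. In 14 genes under 10% of read bases did so, and these held 14.2% of reads. In 10 of the 14 a protein-coding gene overlapped on the other strand. Among these 10, Gm26848, Gm26904, Gm26694 and Gm26551 also overlapped 1, 6, 4 and 4 coding genes on the same strand. Across the 10, the share of read bases over exons of opposite-strand coding genes differed. It was 0% in Gm26848 and 2310075C17Rik, among others, 42.4% in Gm26733 and 99.5% in Gm10684. Gm10684 was the extreme, and 36 of 36 reads in replicate 1 and 26 of 27 in replicate 2 came from a 273-nt 1-exon model. By 99.5% of read bases, Gm10684 lay over exons of Scn2b, a sodium channel subunit gene on the opposite strand with 16 and 9 reads of its own. Outside those 14, Gm26699 had 85.9% of read bases in its own exons and 87.0% over exons of Luc7l2. Gm26735 had 47.4% in its own exons and 89.5% over Sox4.

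**Figure D3:**
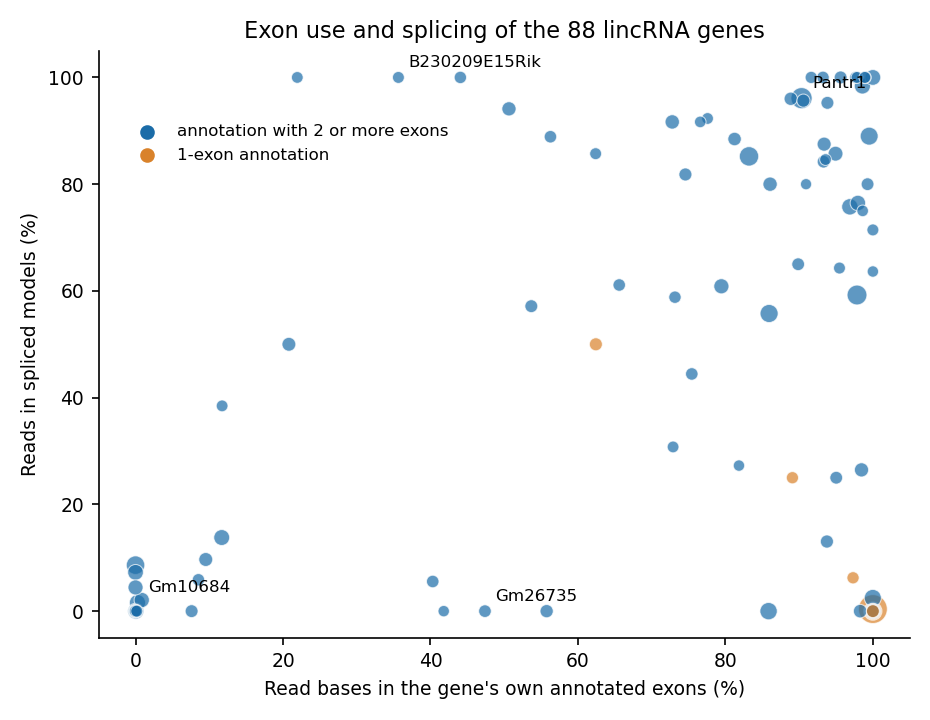
Each point is 1 of the 88 genes, with a larger area for more reads. The x axis gives the share of model bases in its own annotated exons, averaged over reads. The y axis gives the share of spliced reads. A cluster at the lower left, with Gm10684, has few bases in its own exons and few spliced reads.

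Unannotated 1-exon reads numbered 1279, and 26.3% of them ended within 100 nt of an annotated 3′ end. Of 266 such reads that ended inside an exon of the gene with 20 nt after it, 105 (39.5%) had at least 12 A in the next 20 nt, against 1.60% of all 20-nt windows of the longest transcripts. Gm26699 gave 86 of the 105, and without it the share was 19 of 180 (10.6%). Without Xist it was 104 of 187 (55.6%). Whether reads were primed inside the RNA was not tested. A class name could also change between libraries. The 1-exon reads of 1700020I14Rik ending at its annotated end were 27 reads of an incomplete splice match in replicate 1 and 34 of a genomic model in replicate 2.

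By models, the genes fell into those read as annotated and those that were not. Annotated transcripts took over 50% of reads in 17 mostly spliced genes and in 11 that were not mostly spliced, the latter with 612 and 573 reads and led by 2900097C17Rik. Of these 28 genes, 7 had all reads annotated, among them Gm16701 (33 and 22 reads, all spliced) and 4632415L05Rik (19 and 10 reads, 1 exon). 1810058I24Rik had 41 of 42 and 19 of 21 reads annotated. In another 28 genes annotated transcripts took some reads but at most 50%. No read was annotated in 7 mostly spliced genes, where incomplete matches, new exon combinations or unannotated sites carried the reads. Pvt1 had 91.7% of reads spliced and Fam120aos 94.1%, and 2410018L13Rik, Gm32618, B230209E15Rik and Gm47469 had only spliced reads. The other 25 genes without an annotated read were not mostly spliced, and they held 636 reads in replicate 1 and 334 in replicate 2. 2900097C17Rik (mm10, chromosome 2, 156388065 to 156392979, minus strand) was read as 2 annotated 1-exon transcripts, apart from 3 genomic reads in replicate 1. The 4915-nt transcript had 225 and 221 reads, and the 339-nt transcript, which lies inside it and matches Gm7292 by 100%, had 166 and 156. The 3-exon transcript of 8300 nt of 1700020I14Rik (chromosome 2, 119594297 to 119607502, plus strand) had 32 and 34 reads. Gm26848 reads were led by a 1-exon model, of 3813 nt in replicate 1 (68 of 82 reads). In replicate 2 the leading model was of 3568 nt (26 of 34 reads). Of its read bases, 0% lay in its annotated exons. Same-strand reads under other gene names over its models numbered 43 in replicate 1 and 0 in replicate 2.

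Among 56 genes with an annotated transcript read, 39 (69.6%) had AATAAA or ATTAAA in the last 40 nt of the best-read one, against 39.9% of the longest transcripts of other lincRNA genes and 70.0% of protein-coding genes. Mir9-3hg, 2010320M18Rik, AY036118, Gm42418 and Gm26917 were among those without it.

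Spliced reads in new combinations of annotated sites or with unannotated sites formed 319 intron chains in 58 genes. Spliced reads of incomplete matches and genomic models were not counted here. Of these, 52 chains in 27 genes were read in both libraries (16.3%, against 15.9% of 76652 chains over all genes). Mir9-3hg had the most-read chain, a 4-exon model of annotated sites with 13 reads in each library. C230057M02Rik had 9 and 9 reads of a 2-exon chain, Gm32618 10 and 5, 2610035D17Rik 7 and 7, and C030014I23Rik 5 and 5. In all such spliced models, Gm3764 held 74 reads, Mir9-3hg 48, Gm10419 40, Pantr1 33, Pvt1 32 and C230057M02Rik 23. The best-read Pantr1 model was annotated, with 3 exons, at 61 and 34 reads.

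The miR-9 hosts differed in where the hairpin lay. In Gm3764 the Mir9-1 hairpin lay in an intron removed from 26 reads in replicate 1 and 38 in replicate 2. In Mir9-3hg the Mir9-3 hairpin lay in an intron removed from 35 and 46 reads. In C130071C03Rik the Mir9-2 hairpin lay within an exon in 13 reads of each library and in a removed intron in 1 and 0. Remaining reads of these genes did not span the hairpin. Mir670hg, with 12 and 8 reads, holds Mir129-2 and Mir670, and 2900076A07Rik holds Mir1839. Mir124a-1hg, the host of Mir124a-1, had 16 and 11 reads, and 0 spanned that hairpin.

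**Figure D4:**
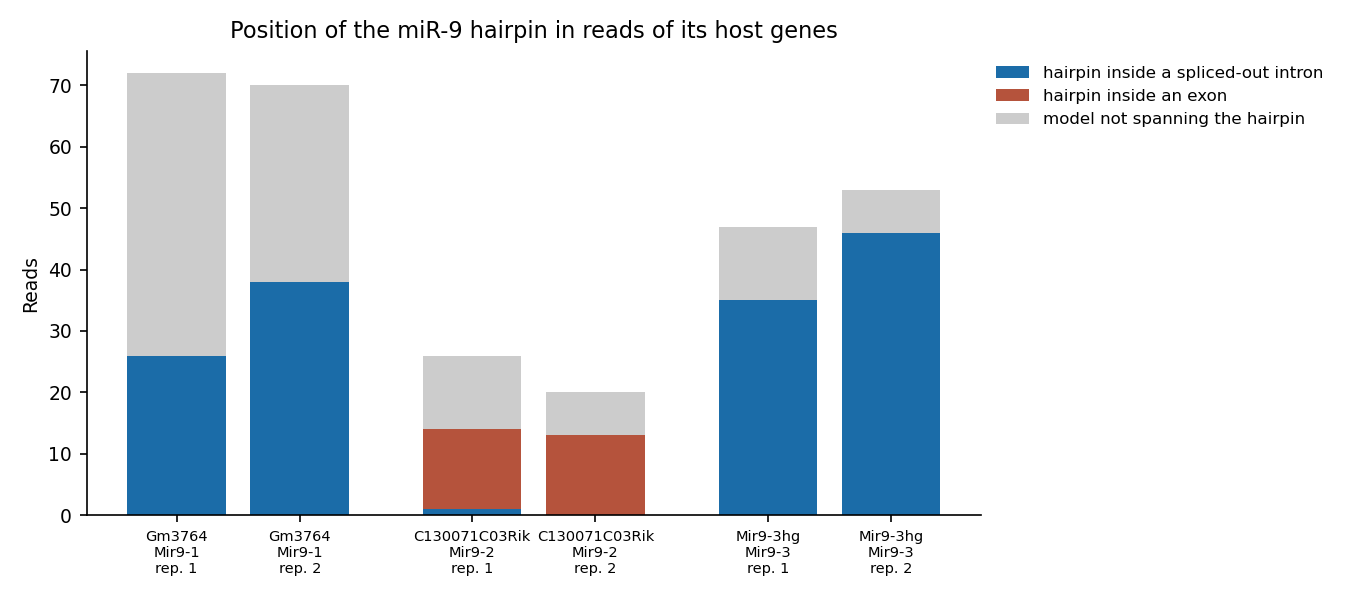
Bars give reads of the 3 miR-9 host genes in each library, divided by where the hairpin lay. In Gm3764 and Mir9-3hg the hairpin was within an intron in every read that spanned it, while in C130071C03Rik it lay in an exon in 13 reads of each library.

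Protein-coding starts were close to these genes. A divergent start, on the opposite strand and upstream, lay within 5 kb in 22 of the 88 (25%), against 6.64% of 5756 other lincRNA genes, and 20 of these were within 1 kb. The median distance was 217 nt. The 6 nearest were 4930570G19Rik with Negr1 at 48 nt, 2010320M18Rik with Pik3r2 at 102, AC132452.5 with 1810055G02Rik at 117, Gm5113 with Zfp146 at 125, C030037D09Rik with Msi2 at 132 and A330069E16Rik with Ddb2 at 164. Heads overlapped an opposite coding gene within 5 kb in 10 genes (11.4%), against 2.14% of other lincRNA genes. An opposite coding gene overlapped somewhere in 24 (27.3%), against 6.72% of other lincRNA genes. A coding gene on the same strand overlapped in 6 (6.82%), against 1.75%. Downstream of a coding gene on the same strand within 5 kb lay 4 genes (4.55% against 3.18%). These shares carry no test, since read genes were chosen by their counts.

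The coding partner was not always the better read. It had more reads in both libraries in 12 of 22 pairs, and the lincRNA gene had more in 8. Reads of some of these lincRNA genes lay mostly outside their own exons. Gm10684, among the 8, had 0.263% of read bases in its own exons, and AC132452.5, among the 12, had 0%. Pik3r2 had 263 and 296 reads beside 13 and 8 of 2010320M18Rik. Ankrd13b had 63 and 59 beside 7 and 6 of 2210008F06Rik. Pantr1, at 130 and 76 reads, exceeded Pou3f3, at 14 and 17. Gm16701, at 33 and 22, exceeded Fam78b, at 9 and 13.

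**Figure D5:**
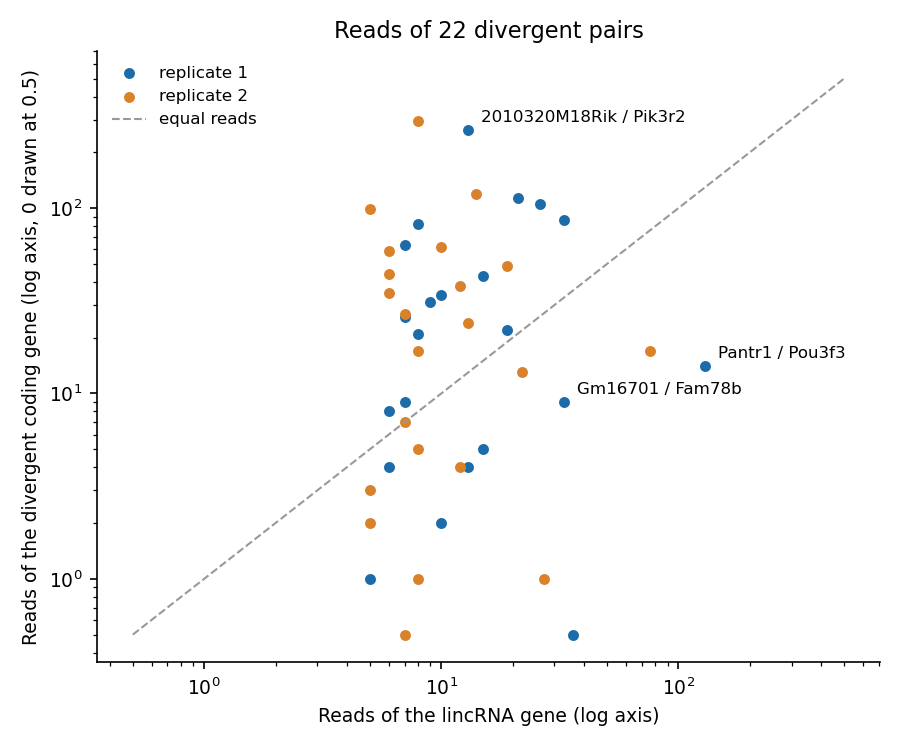
Reads of the divergent coding gene (y axis) and of the lincRNA gene (x axis) for 22 pairs, both on log axes, with 1 point for each library. Pantr1 lies below the line of equal reads, with 130 reads of its own and 14 of Pou3f3 in replicate 1, and 2010320M18Rik lies above it, with 13 and 263.

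RefSeq promoters (250 bases before to 50 after the start) matched 45 of the 88 genes, 40 of them within 500 nt of the GENCODE start. A GC content over 55% with a CpG ratio over 0.65 was met by 10 of 11 with a divergent partner, 13 of 29 without one and 28.3% of 27025 RefSeq promoters. The 2 sequences below contrast these, with CG in capitals. 4930570G19Rik, whose start is the nearest to a divergent one, had 74.7% GC and 37 CpG, and C130071C03Rik 60.7% GC and 12 CpG.
4930570G19Rik, chr3:156561697-156561996, minus strand: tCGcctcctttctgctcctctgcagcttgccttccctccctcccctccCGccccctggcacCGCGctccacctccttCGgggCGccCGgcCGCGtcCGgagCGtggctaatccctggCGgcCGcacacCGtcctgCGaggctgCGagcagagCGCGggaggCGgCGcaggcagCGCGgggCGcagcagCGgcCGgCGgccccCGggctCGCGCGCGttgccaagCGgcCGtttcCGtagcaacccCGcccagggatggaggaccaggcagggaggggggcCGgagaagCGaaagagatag
C130071C03Rik, chr13:83721131-83721430, plus strand: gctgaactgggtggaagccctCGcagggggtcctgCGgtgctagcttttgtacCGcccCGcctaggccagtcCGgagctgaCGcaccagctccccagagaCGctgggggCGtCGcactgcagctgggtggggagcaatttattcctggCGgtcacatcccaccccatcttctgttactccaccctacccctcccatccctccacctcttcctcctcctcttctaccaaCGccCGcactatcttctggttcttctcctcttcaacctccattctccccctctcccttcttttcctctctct

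Between the libraries, 3 of 88 genes had a read split past the threshold for a difference from the split of library totals (two-sided exact binomial test, Benjamini-Hochberg over 11681 genes, threshold 0.05), against 11.5% of all genes tested. The rule for the set used these same counts, and a minimum of 5 reads in each library limits the splits that can occur, so the count is a description from which nothing is read. Gm34304, at the edge of the rule in replicate 2, had 26 and 5 reads, or 22.3 and 5.63 CPM. Gm26848 had 70.2 and 38.3 CPM, so both genes were higher in replicate 1. 2900097C17Rik was higher in replicate 2, at 337 and 424 CPM. With totals scaled by TMM, which shifts the log2 ratio of replicate 2 over replicate 1 by -0.12, 2900097C17Rik no longer passed, and the 4 genes past the threshold were all higher in replicate 1. With an offset for a trend with transcript length, neither 2900097C17Rik nor Gm34304 passed.

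The annotated share of reads did not pass the test in any of the 20 genes that reached 20 reads in both libraries (two-sided Fisher's exact test, 0 called, against 0.696% of 6607 genes). At an unadjusted p under 0.05 there was 1, Gm3764, with 25 of 72 reads annotated in replicate 1 and 11 of 70 in replicate 2 (adjusted p = 0.41).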

How the data were processed

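Long-read RNA libraries of 1 group were analysed. The authors deposited raw counts of reads for every transcript model, in a separate table for each library, aligned to mm10 and assigned to GENCODE M21 transcripts plus models from each library's own reads, with TALON named as their source, per the file headers. The aligner: not given in the sources used here. Deposited intervals of 66 of the 88 genes differed from GENCODE M21, so reference coordinates were used, and model lengths are not read lengths. CPM were computed over all reads, spike-ins included, and log2 ratios used an added 1 CPM. Genes with a sum of 10 or more reads entered the binomial test, and those with 20 in each the Fisher test. Both were run on simulated counts that held counting error only, so that check does not cover spread between libraries. The two-sided binomial p is that of scipy 1.17.1 (outcomes no likelier than the one seen), which called 1342 genes. Doubling the smaller tail called 1266. Both counts were known when the first was kept as the main definition, and the second was added after seeing the data. TMM factors came from edgeR 4.0.16 and size factors from DESeq2 1.42.0. Near copies were sought with blastn 2.17.0 (at least 90% identity over 50% of a transcript). Named genes were those in role lists, the 15 highest, the 6 with most unannotated spliced reads, the 6 nearest divergent starts, those called, and 3 on each side of the read minimum. Others were named after their values were seen. The genes, lists and alternatives were chosen with earlier results of these data known. Cut points on exon use, the 10 to 100 read comparison, the 100-nt window and the A count were set after values were seen.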

Additional observations from a re-analysis of the deposited data

How the results depend on the processing

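The number of genes was 140 with at least 3 reads in each library, 41 with at least 10 and 31 with annotated transcripts only. Asking for 5 reads in 1 library gave 105 to 154 genes, a summed level of 2016 to 2677 CPM, an annotated share of 39.0% to 52.7%, 56 to 70 mostly spliced genes, 25 to 32 divergent genes and 5 to 9 same-strand downstream genes. The summed level was 981 CPM with annotated transcripts only and 1538 with at least 10 reads, and its mean moved by less than 1 SD under TMM and DESeq2 scaling, whose own SDs were 138 and 136. The annotated share was 20.0% as the median of the genes' own shares within each library, against 25.2% with both libraries pooled. It was 56.1% with at least 10 reads, 39.1% without 2900097C17Rik (added after seeing the data) and 56.5% with incomplete splice matches counted as annotated. Mostly spliced genes numbered 30 at a cut of 80% and 18 with at least 10 reads. Divergent genes numbered 8 with at least 10 reads, and 20, 23 and 16 at 1 kb, 10 kb and from the furthest 5′ end of read models. Same-strand downstream genes numbered 0 at 1 kb, 9 at 10 kb and 2 with at least 10 reads. The read split was called in 1 gene with annotated transcripts only (12.0% of all genes tested) and in 3 or 4 under every other setting run. Over all genes the share was 14.6% with at least 20 reads, 6.07% with no minimum, 10.1% under TMM and 10.2% under DESeq2 scaling, and 10.8% with the doubled tail, which called the same 3 genes. Under the length trend it was 4.62%, and the 3 called were AY036118, Gm26848 and Xist. Under TMM the 4 called were all higher in replicate 1 (Gm26699, Gm26848, Gm34304 and Xist), and over all genes the calls higher in replicate 2 went from 730 of 1342 to 376 of 1181. 2900097C17Rik was also lost under DESeq2 scaling (adjusted p = 0.233) and a transcript-length trend (adjusted p = 0.787), as was Gm34304 under that trend (adjusted p = 0.221). The annotated share was called in 1 gene, 1700020I14Rik, when incomplete splice matches counted as annotated, where 286 of 6607 genes (4.33%) were called. Of the 1-exon reads of 1700020I14Rik ending at its annotated end, 27 in replicate 1 were incomplete splice matches and 34 in replicate 2 were genomic. The cause of the changes between settings was not tested. At 5 reads, a gene's level is limited by counting error. No paired analysis was possible because the labels give 1 group.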
